A study of Homo sapiens with 12 samples.

Results

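Mature strands of miR-146 and miR-155, microRNAs (miRNAs) linked to NF-kB signalling, were followed in A549 cells during epithelial-mesenchymal transition (EMT) induced by TGF-β. The 4 members were chosen by name in the count table: hsa-miR-146a-5p, hsa-miR-146b-5p, hsa-miR-146b-3p, and hsa-miR-155-5p, out of 2588 mature miRNAs. A549 cells are an established epithelial line from a human lung adenocarcinoma, and the cytokine TGF-β drives them toward a mesenchymal state. Cells were kept in medium without serum before TGF-β1 was added, and small RNA was sequenced at 0, 24, and 96 h, with 2 libraries per time point and 2 runs per library. The 0 h libraries are the reference; libraries of untreated cells kept for 24 or 96 h were not part of the samples, so treatment and time in culture cannot be told apart. The labels do not say whether the libraries of a time point came from separate cultures, so the tests measure only the spread between these libraries, which may be technical.

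NF-kB is a family of transcription factors that switches on inflammatory genes after signals from Toll-like and cytokine receptors. The gene of miR-146a is a known NF-kB target. In a negative feedback loop, miR-146a-5p and miR-146b-5p repress IRAK1 and TRAF6, proteins that carry the signal from these receptors. miR-155 is processed from the MIR155HG transcript, which inflammatory signals induce in immune cells, where it is best known.

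The mature sequences below, from RefSeq on GRCh38.p14, show which members could bind the same targets. Capitals mark the seed, bases 2 to 8, which leads target pairing.
hsa-miR-146a-5p: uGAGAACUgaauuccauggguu
hsa-miR-146b-5p: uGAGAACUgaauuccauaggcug
hsa-miR-146b-3p: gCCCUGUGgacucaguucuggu
hsa-miR-155-5p: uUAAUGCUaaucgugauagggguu
miR-146a-5p and miR-146b-5p shared the seed GAGAACU, whereas the seeds of miR-146b-3p and miR-155-5p were each held by 1 of the 2370 mature names in the RefSeq table. Counted from 1 at the 5′ end of miR-146a-5p, the 2 related strands were identical over the first 17 bases and at 20 of 22 compared positions, and differed by G18A and U21C. A read has to reach base 18 to tell them apart, and how shorter reads were assigned is not given in the sources used here. The seed was found in 3 names in all; the third, hsa-miR-7153-5p, had a count of 0 in all 6 libraries.

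The members lie at 3 loci of GRCh37. miR-146a-5p (chr5:159912379-159912400, plus strand) lies in an exon of the long noncoding RNA gene MIR3142HG, which spans positions 159865601 to 159914433. miR-146b-5p (chr10:104196277-104196299) and miR-146b-3p (chr10:104196314-104196335) are both arms of the plus-strand precursor gene MIR146B, which no other annotated gene overlapped; the nearest protein-coding gene was CUEDC2, 3936 bases from miR-146b-5p. miR-155-5p (chr21:26946295-26946318, plus strand) lies in an exon of the long noncoding RNA gene MIR155HG, at 26934122 to 26947480.

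The promoters of both host genes, 250 bases before to 50 bases after the RefSeq start on GRCh38.p14, were searched on both strands for an NF-kB-type motif, GGGACTTTC, and an AP-1 motif, TGAGTCA. In the windows shown here, the motif is in capitals.
MIR3142HG, NF-kB-type motif, chr5:160468121-160468150, plus strand: ggatctagaaGGGACTTTCcagagagggtt
MIR155HG, AP-1 motif, chr21:25562075-25562104, plus strand: tggtcggttaTGAGTCAcaagtgagttata
The NF-kB-type motif lay 120 bases before the start of MIR3142HG, and 136 of 35116 promoters of the same length (0.387%) held it. The AP-1 motif lay 60 bases before the start of MIR155HG, and 1738 of the 35116 promoters (4.95%) held it. Neither exact motif was found in the window of the other gene, and variant or more distant sites were not searched. The motifs were chosen after the promoters had been read, so these matches and shares are not a test. These matches describe letters and not binding, which was not measured here.

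Total counts on mature miRNAs ranged from 2335185 to 5971197, with both 96 h libraries the deepest, and 1 read was worth 0.167 to 0.428 CPM, the count scaled to a common library total. The authors deposited the sum of both runs of a library. Counts were normalized by edgeR's TMM, whose factors ranged from 0.738 to 1.36. Lists of cell type miRNAs were also summed, and the sums did not single out epithelium. The 6 epithelial miRNAs, of the miR-200 and miR-205 families, together reached 139 to 163 CPM of the total count at 0 h and 179 to 186 CPM at 96 h. Among them, miR-205-5p had at most 3 counts in a library. The 2 endothelial miRNAs were at 538 to 551 CPM at 0 h and 360 to 365 CPM at 96 h. The 3 red blood cell miRNAs, mainly miR-486-5p, were at 152 to 184 CPM and 21.3 to 27.9 CPM. The 3 fibroblast miRNAs were at 1.22 to 2.57 CPM at 0 h. Because miR-146 and miR-155 are abundant in immune cells, 4 white blood cell miRNAs were summed as well: they gave 4.07 to 5.995 CPM at 0 h, 1.87 to 2.36 CPM at 24 h, and 0.502 to 0.644 CPM at 96 h. Of these, miR-223-3p and miR-150-5p were at 0 in all libraries, which allows up to 0.502 to 1.28 CPM.

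miR-146a-5p was the most abundant member in every library, and its TMM-normalized level was similar at 0 and 24 h and higher at 96 h. Its counts were 2164 and 3237 at 0 h, then 2391 and 2770 at 24 h, then 5718 and 4683 at 96 h. The normalized levels were 793 and 966 CPM at 0 h, 890 and 848 CPM at 24 h, and 1298 and 1271 CPM at 96 h. Both 96 h libraries lay above all others, and the 24 h libraries lay within the range at 0 h. The means were 880 ± 122 CPM at 0 h, 869 ± 30.1 CPM at 24 h, and 1284 ± 19.3 CPM at 96 h (SD, n = 2).

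At 96 h, miR-146a-5p was 1.46-fold higher than at 0 h (log2-fold change 0.55, SE 0.14, adjusted p = 0.0121, edgeR quasi-likelihood F-test with Benjamini-Hochberg adjustment over 491 tested miRNAs). It was 1.48-fold higher than at 24 h (log2-fold change 0.56, SE 0.14, adjusted p = 0.0291 in the same edgeR test), whereas the change from 0 to 24 h was -0.02 (SE 0.14, adjusted p = 0.942). After the thresholds in the study's methods, a call needs an adjusted p under 0.05 together with a log2-fold change beyond 1 in either direction, and miR-146a-5p did not reach that fold at any time. In edgeR fits that each left out 1 library, the adjusted p for 96 against 0 h was 0.0835 (log2-fold change 0.56) when 96 h replicate 1 was dropped and 0.0621 (0.60) when 96 h replicate 2 was dropped, and it was 0.0207 and 0.00159 when 0 h replicate 1 or 2 was dropped. Such fits leave 1 library at that time point, which is assumed to vary like the others. After thinning every library to the depth of the shallowest, the adjusted p for 96 against 0 h was 0.0189 (0.50). For 96 against 24 h, it was 0.108 to 0.251 (log2-fold change 0.60 to 0.66) without any 1 of the 4 libraries compared, and 0.0378 (0.55) in thinned libraries.

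miR-146b-5p, which carries the same seed, was the second most abundant member. Its counts were 302 and 430 at 0 h, then 279 and 341 at 24 h, then 582 and 521 at 96 h. The TMM-normalized levels were 111 and 128 CPM at 0 h, 104 and 104 CPM at 24 h, and 132 and 141 CPM at 96 h. On this scale the libraries of the 3 time points did not overlap, but they lay close together, with means of 120 ± 12.5, 104 ± 0.339, and 137 ± 6.55 CPM (SD, n = 2). Scaled to the total count, miR-146b-5p was at 129 and 175 CPM at 0 h, 110 and 106 CPM at 24 h, and 97.5 and 112 CPM at 96 h. There the 24 and 96 h libraries overlapped, and the 0 h libraries were the highest. No comparison passed the edgeR test: the log2-fold change was -0.20 (SE 0.16, adjusted p = 0.453) at 24 against 0 h, 0.19 (SE 0.16, adjusted p = 0.359) at 96 against 0 h, and 0.39 (SE 0.16, adjusted p = 0.132) at 96 against 24 h.

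**Figure D1:**
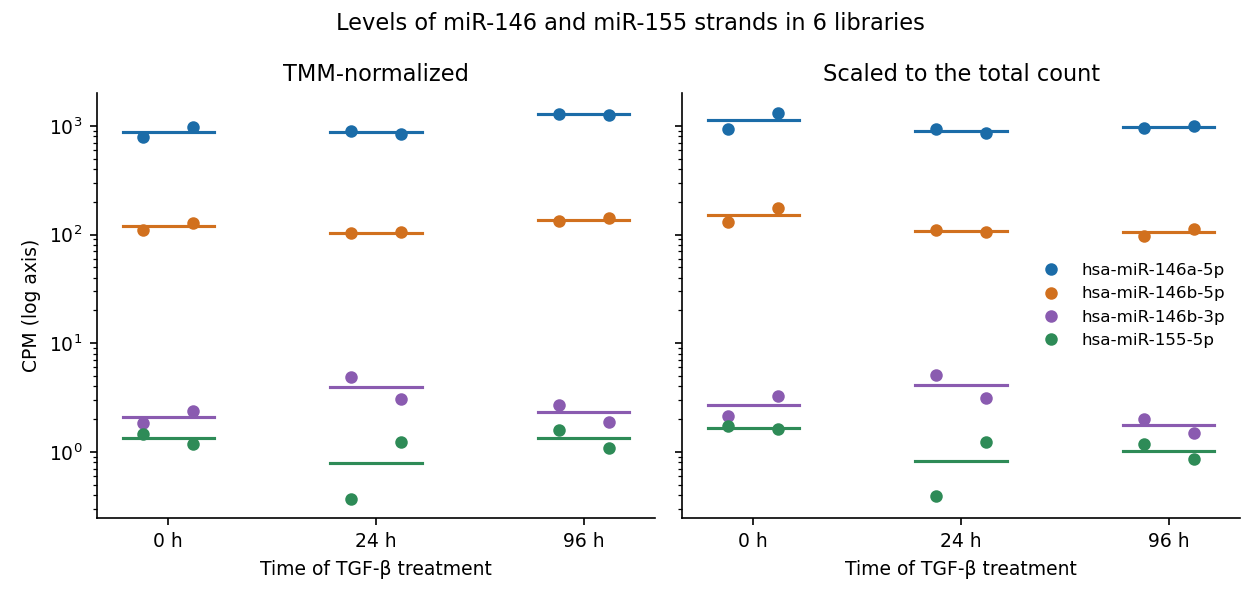
Level in CPM on a log axis against the time of TGF-β treatment, TMM-normalized on the left and scaled to the total count on the right. Each point is 1 library and each line the mean of 2 libraries. The 96 h points of miR-146a-5p, at 1298 and 1271 CPM, lie above all its others on the left, whereas on the right, at 958 and 1005 CPM, they lie within the range of the other time points.

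The direction of the 96 h difference of miR-146a-5p depended on the normalization. Scaled to the total count, its levels were 927 and 1318 CPM at 0 h, 939 and 862 CPM at 24 h, and 958 and 1005 CPM at 96 h. On this scale, both 96 h libraries lay between the 0 h libraries, and the edgeR log2-fold change at 96 against 0 h was -0.19 (SE 0.18, adjusted p = 0.368). The total is mostly miR-21-5p, which took 52.4% to 56.1% of the mature reads at 0 h, 56.8% to 58.1% at 24 h, and 63.8% to 65.5% at 96 h. With miR-21-5p left out of the total, the log2-fold change of miR-146a-5p was 0.19 (adjusted p = 0.307, edgeR).

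Over all 491 tested miRNAs, the median log2-fold change at 96 against 0 h was -0.10 under TMM and -0.83 under the total count. A change of scaling shifts all miRNAs by nearly the same amount, so a distance from that median hardly depends on the scale. miR-146a-5p stood 0.64 above it, and 27.1% of the tested miRNAs had a higher log2-fold change. miR-146b-5p stood 0.29 above it, while its own log2-fold change was 0.19 under TMM and -0.54 (adjusted p = 0.0348, edgeR) under the total count. Whether the amounts per cell changed cannot be read from these libraries.

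**Figure D2:**
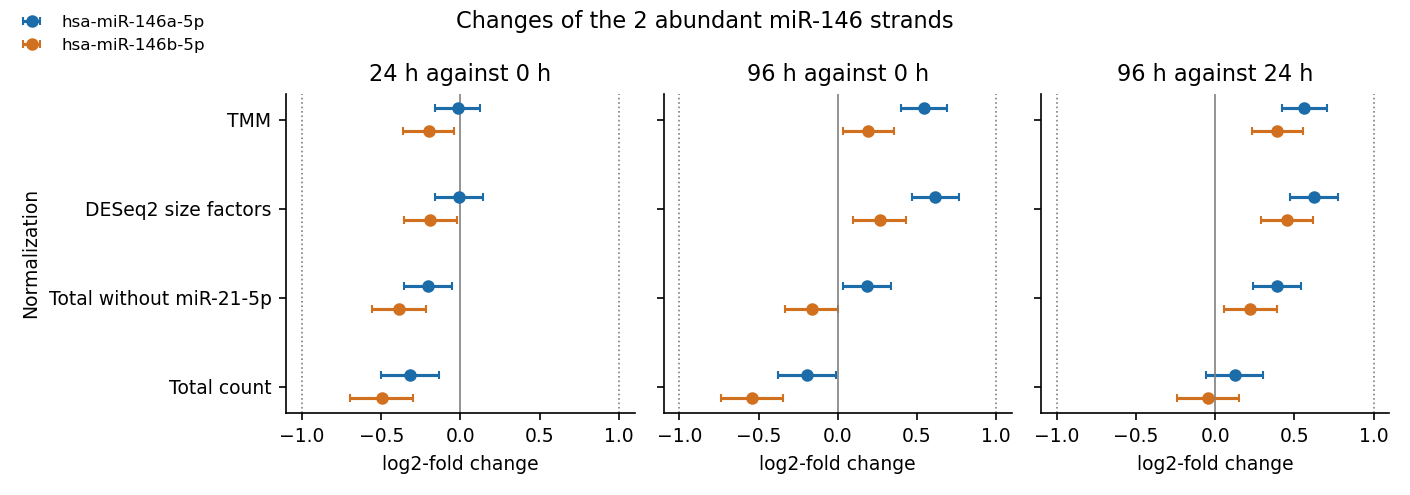
The log2-fold change of miR-146a-5p and miR-146b-5p in the 3 comparisons under 4 normalizations, with bars for the standard error and dotted lines at the fold threshold of 1. At 96 against 0 h, miR-146a-5p moves from 0.55 under TMM to -0.19 under the total count, and both miRNAs stay inside the dotted lines throughout.

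The ratio of both miR-146 guide strands within a library needs no normalization. miR-146a-5p to miR-146b-5p was 7.17 and 7.53 at 0 h, then 8.57 and 8.12 at 24 h, then 9.82 and 8.99 at 96 h. No library of one time point overlapped with another time point, and the means were 7.35 ± 0.256, 8.35 ± 0.316, and 9.41 ± 0.591 (SD, n = 2). The exact two-sided permutation test gave p = 0.333 for each of the 3 comparisons, the smallest p that 2 against 2 libraries allow. Expressed as a share, miR-146a-5p made up 87.8% to 88.3% of both strands at 0 h and 90.0% to 90.8% at 96 h. The 95% Wilson interval was 86.4% to 89.0% in 0 h replicate 1 and 87.2% to 89.3% in 0 h replicate 2, against 90.0% to 91.5% in 96 h replicate 1 and 89.1% to 90.8% in 96 h replicate 2. The intervals of the second replicates of 0 and 96 h thus overlapped slightly, while those of 0 h replicate 1 lay below both at 96 h; all intervals cover counting error only.

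Together, both strands with this seed took 0.106% and 0.149% of the mature reads at 0 h, then 0.105% and 0.0968% at 24 h, then 0.106% and 0.112% at 96 h. By TMM, their summed level was 904 and 1095 CPM at 0 h, 994 and 952 CPM at 24 h, and 1430 and 1412 CPM at 96 h. The sum followed miR-146a-5p on both scales.

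**Figure D3:**
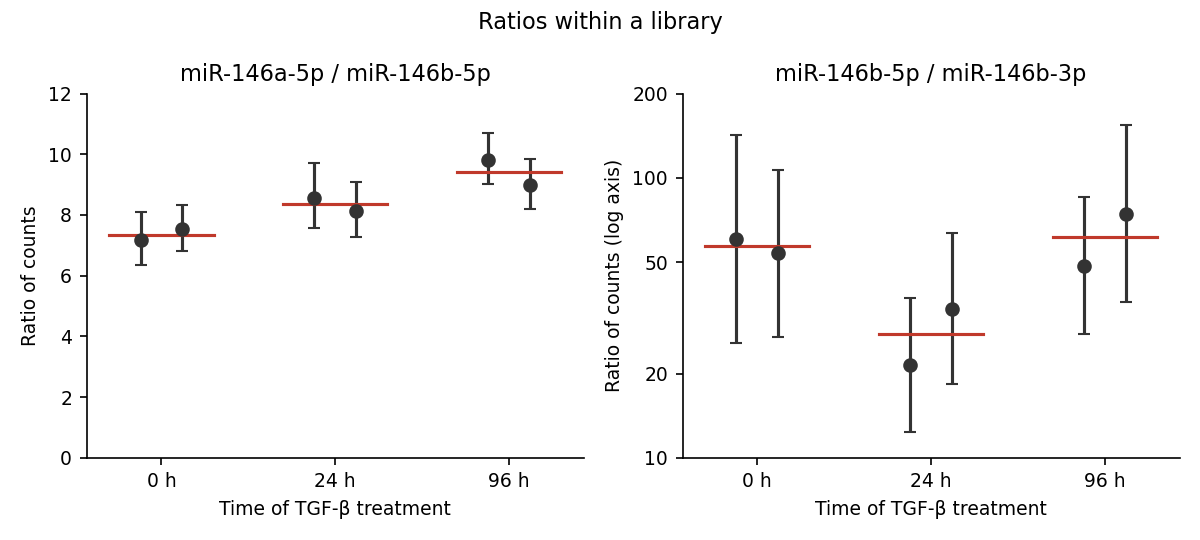
Ratio of counts in each library against time, for miR-146a-5p to miR-146b-5p on the left and miR-146b-5p to miR-146b-3p on a log axis on the right. Points are libraries with 95% counting intervals and red lines are means of 2 libraries. On the left the means are 7.35, 8.35, and 9.41, and on the right the 24 h libraries lie lowest, at 21.5 and 34.1, with wide intervals.

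miR-146b-3p, the other arm of the miR-146b precursor, was near the limit of detection. Its counts were 5 and 8 at 0 h, then 13 and 10 at 24 h, then 12 and 7 at 96 h. The TMM-normalized levels were 1.83 and 2.39 CPM at 0 h, 4.84 and 3.06 CPM at 24 h, and 2.72 and 1.90 CPM at 96 h. Both 24 h libraries were the highest, but the exact Poisson interval of 13 counts ran from 6.92 to 22.2 counts and that of 10 counts from 4.80 to 18.4.

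The ratio of miR-146b-5p to miR-146b-3p was 60.4 and 53.8 at 0 h, then 21.5 and 34.1 at 24 h, then 48.5 and 74.4 at 96 h. It was lowest in both 24 h libraries without overlap, with p = 0.333 in the exact two-sided permutation test against either time, the smallest possible. The 95% counting intervals were wide, from 12.4 to 37.2 in 24 h replicate 1 and from 25.6 to 142 in 0 h replicate 1, and 5 to 13 counts of miR-146b-3p stood behind each ratio. The 5p arm gave 95.5% to 98.7% of the reads of both arms.

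miR-155-5p was barely detected in these cells, with counts of 4 and 4 at 0 h, then 1 and 4 at 24 h, then 7 and 4 at 96 h. The normalized levels were 1.47 and 1.19 CPM at 0 h, 0.372 and 1.22 CPM at 24 h, and 1.59 and 1.09 CPM at 96 h. All 3 time points overlapped, and 1 count has an exact Poisson interval of 0.0253 to 5.57 counts. Its other arm, miR-155-3p, was not counted in any of the 6 libraries, where a count of 0 allows up to 0.502 CPM in the deepest and 1.28 CPM in the shallowest. miR-146a-5p counts were 541 to 2391 times those of miR-155-5p in the same library.

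miR-146b-3p and miR-155-5p fell below the expression filter and entered no test. In an edgeR fit without the filter, over 1417 miRNAs, neither passed in any comparison. For miR-146b-3p, the log2-fold change was 0.89 (SE 0.63, adjusted p = 0.755) at 24 against 0 h and 0.18 (SE 0.65, adjusted p = 0.962) at 96 against 0 h in that edgeR fit. For miR-155-5p, it was -0.62 (SE 0.99, adjusted p = 0.823) and 0.08 (SE 0.87, adjusted p = 1). With so few counts, only a change well beyond these standard errors could have been detected.

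The other arm of the miR-146a precursor, miR-146a-3p, was also rare. Its counts were 2 and 11 at 0 h, then 3 and 4 at 24 h, then 17 and 13 at 96 h. The ratio of miR-146a-5p to miR-146a-3p was 1082 and 294 at 0 h, then 797 and 693 at 24 h, then 336 and 360 at 96 h. The 0 h libraries spanned the others, and without the filter the edgeR log2-fold change of miR-146a-3p was 0.87 (SE 0.63, adjusted p = 0.548) at 96 against 0 h and 1.65 (SE 0.70, adjusted p = 0.178) at 96 against 24 h.

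In the order of mean level at 0 h, miR-146a-5p was 57th, miR-146b-5p 135th, miR-146b-3p 510th, and miR-155-5p 563rd. miR-146a-5p, at 880 ± 122 CPM, did not differ beyond its spread from its neighbours miR-23a-3p (951 ± 47.9 CPM) and miR-16-5p (864 ± 99.3 CPM). miR-146b-5p stood between miR-361-5p (121 ± 0.457 CPM) and miR-15a-5p (118 ± 56.6 CPM), also within the spread. miR-146b-3p (2.11 ± 0.393 CPM) and miR-155-5p (1.33 ± 0.192 CPM) had neighbours of like mean level: miR-1291 and miR-624-5p, and miR-6840-3p and miR-1908-3p. The counts of miR-624-5p and miR-1908-3p at 0 h were those of the member beside them, whereas miR-1291 had 1 and 13 counts and miR-6840-3p 0 and 9. The gaps between the members themselves were larger than the spread from miR-146a-5p to miR-146b-5p and from there to miR-146b-3p at all 3 times. Between miR-146b-3p and miR-155-5p, the exact Poisson intervals of the counts overlapped in 5 of 6 libraries; in 24 h replicate 1, with 13 counts against 1, they did not.

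Among all tested miRNAs, those that passed both thresholds were 3.46% at 24 against 0 h, 25.9% at 96 against 0 h, and 5.91% at 96 against 24 h, and 0 of the 2 tested members did so in any comparison. By adjusted p alone, 22.8% of the tested miRNAs were higher and 21.2% lower at 96 against 0 h, and 1 of the 2 members, miR-146a-5p, was higher. At 96 against 24 h, 8.96% were higher and 3.67% lower, and again 1 of the 2 members was higher. At 24 against 0 h, 3.46% were higher and 3.67% lower, and 0 of the 2 members were either.

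**Figure D4:**
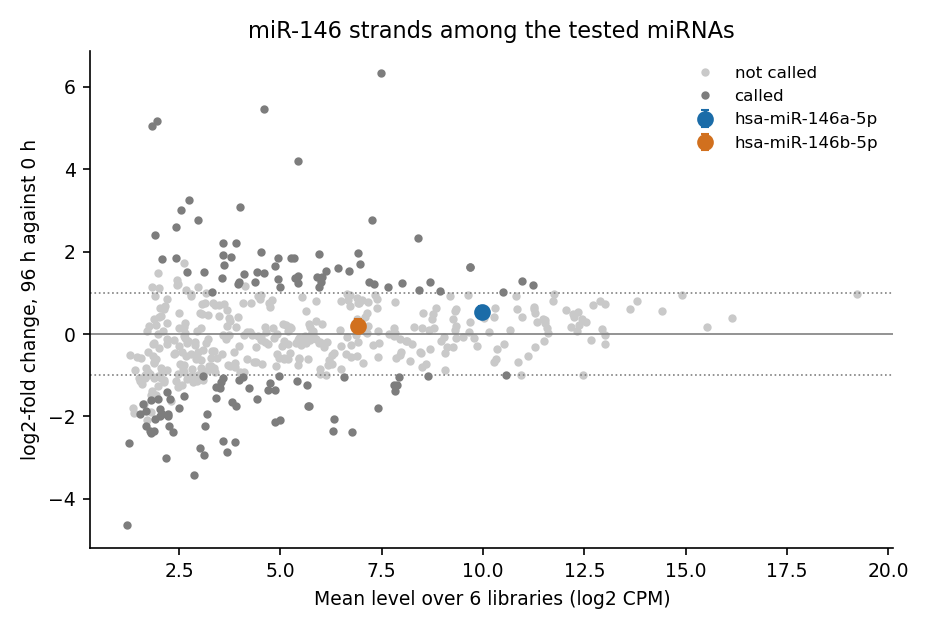
The log2-fold change at 96 against 0 h against the mean level for the 491 tested miRNAs, with dotted lines at the fold threshold of 1 and bars for the standard error of the members. miR-146a-5p, at 0.55, and miR-146b-5p, at 0.19, lie between the dotted lines.

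A list of 13 other miRNAs linked to NF-kB signalling was read beside the members, and 10 of them were tested. At 96 against 0 h, 2 of the 10 were higher by adjusted p, a share near the 22.8% of all tested miRNAs. By the same measure 0 were lower, beside 21.2%, and 0 passed both thresholds, beside 25.9%. The 2 higher ones were miR-21-5p (log2-fold change 0.97, SE 0.18, adjusted p = 0.0021, edgeR) and miR-181b-5p (0.93, SE 0.18, adjusted p = 0.00274, edgeR). The gene of miR-21-5p is a target of STAT3 and AP-1. miR-181b-5p is a regulator of importin-α3, which carries NF-kB into the nucleus. The median over the 10 was 0.10, beside -0.10 for all tested miRNAs. The changes of miR-21-5p and miR-181b-5p stayed positive under the total count but were smaller. The log2-fold change was then 0.25 (adjusted p = 0.01005, edgeR) for miR-21-5p and 0.19 (adjusted p = 0.484, edgeR) for miR-181b-5p. On that scale, 1 of the 10 was higher and 7 were lower by adjusted p in edgeR, with a median of -0.62, beside 8.96% higher and 56.8% lower and a median of -0.83 for all tested miRNAs. Under TMM, 0 of the 10 passed by adjusted p at 24 against 0 h (median 0.19, beside -0.004) and at 96 against 24 h (median 0.12, beside -0.05). Among all tested miRNAs, 3.46% were higher and 3.67% lower at 24 against 0 h, and 8.96% and 3.67% at 96 against 24 h. Of those without a test, miR-223-3p, a myeloid miRNA, had a count of 0 throughout, and miR-212-3p and miR-199a-5p reached at most 7 and 4 counts.

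Profiles were also compared over the 6 libraries, as the root mean square difference of centred log2 CPM, among 321 miRNAs. The profile closest to miR-146a-5p was that of miR-15b-5p (0.0896), followed by miR-183-5p (0.117) and miR-30a-3p (0.140), and miR-146b-5p came 4th (0.153), against a median of 0.416. The mean level of miR-15b-5p was 134 CPM at 0 h, 153 CPM at 24 h, and 207 CPM at 96 h. Closest to miR-146b-5p were miR-320a (0.112), miR-769-5p (0.116), and miR-103a-3p (0.127), with miR-146a-5p 7th, against a median of 0.384. These values describe likeness over 6 libraries, in which each miRNA is scaled by the same factors and the 96 h libraries are the deepest.

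Both runs of a library could be separated in 5 libraries, all but 96 h replicate 2, and which separated run has which date label is not known. By the sample titles, the second runs of both 24 h libraries share 1 date label, and those of both 96 h libraries share another. The 0 h libraries have 1 of each. Between 24 and 96 h, the label of the second run therefore cannot be told apart from time, and against 0 h it is partly mixed with time. miR-146a-5p differed between the runs of a library by 0.737% to 6.55% and miR-146b-5p by 3.39% to 12.2% of their mean. In the larger runs, the ratio of miR-146a-5p to miR-146b-5p was 7.07 and 7.14 at 0 h, 8.46 and 8.69 at 24 h, and 10.02 at 96 h. In the smaller runs, it was 7.46 and 8.08 at 0 h, 8.81 and 7.40 at 24 h, and 9.32 at 96 h, so that 0 and 24 h overlapped while the 96 h value remained the highest. miR-155-5p was counted in the smaller run of only 1 of these 5 libraries, 0 h replicate 1, with 1 read.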

How the data were processed

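Small RNA libraries were made with an Illumina kit and sequenced on an Illumina instrument. The authors counted reads with miRDeep2 and deposited counts per mature miRNA and precursor, with both runs of a library summed; the submitters' processing notes name FastQC and hg19, and the mapper settings and miRNA reference set are not given in the sources used here. The authors also deposited a normalized signal, in which each run was expressed as CPM and both runs were added; 1 of its columns repeats another and was not used, so 96 h replicate 2 has no normalized value. For a miRNA listed under several precursors (170 of 2588), 1 entry was used.

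Counts were fitted for all 6 libraries with edgeR 4.0.16 (R 4.3.3): TMM, filterByExpr with a minimum count of 10, and the quasi-likelihood F-test with Benjamini-Hochberg adjustment over 491 miRNAs. SE is the absolute log2-fold change over the square root of F. The procedure was tested on simulated data. Alternatives used DESeq2 1.42.0, limma 3.58.1 on log2(normalized signal + 1), other scalings and filters, thinned libraries, a replicate block, and leaving out each library. Ratios were tested with exact permutation in R, and the Poisson intervals of counts came from scipy 1.17.1. Limits take 3 counts. Sequences were matched to RefSeq (GRCh38.p14; 2281 of 2588 names) and located by exact match to GRCh37 with GENCODE annotation.

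Named miRNAs were the members, their other arms, miRNAs sharing a seed, the 13 NF-kB-linked miRNAs, the 3 closest profiles among tested miRNAs averaging 10 CPM or more, and neighbours in level. Members and lists were chosen with earlier results of these data known, and the promoter motifs after the promoters had been read.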

Additional observations from a re-analysis of the deposited data

Results flagged for a closer look

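The change of miR-146a-5p differed between the 2 treatment times: its log2-fold change against 0 h was -0.02 at 24 h and 0.55 at 96 h, and the difference itself was 0.56 (SE 0.14, adjusted p = 0.0291, edgeR quasi-likelihood F-test with Benjamini-Hochberg adjustment), with both 96 h libraries above both 24 h libraries. The difference was 0.12 (adjusted p = 0.599) in the edgeR fit scaled to the total count, and 0.60 to 0.66 when 1 library was left out, with adjusted p of 0.108 to 0.251. The 96 h libraries were also the deepest, but after every library was thinned to the depth of the shallowest, the difference was 0.55 (adjusted p = 0.0378, edgeR). miR-21-5p took its largest share of reads at 96 h, and with it left out of the totals the difference was 0.39 (adjusted p = 0.104, edgeR). The date label of the second run also differed between the 24 h and the 96 h libraries, so it cannot be told apart from time here.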

How the results depend on the processing

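At 96 against 0 h, the log2-fold change of miR-146a-5p was -0.19 under total counts and -0.17 in limma on the normalized signal, which lacks 96 h replicate 2; that of miR-146b-5p was -0.54 and -0.55, or -0.17 once miR-21-5p was taken out of the totals. At 96 against 24 h, that of miR-146b-5p was -0.044 and -0.11. Total counts also moved miR-146b-3p to -0.62 at 96 against 0 h and -1.23 at 96 against 24 h. Without the filter, miR-146a-5p was 0.0092 at 24 against 0 h. The fold threshold decided the calls of miR-146a-5p: without it, 0.55 and 0.56 at 96 h counted as called.

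Differentially expressed miRNAs numbered 17 at 24 against 0 h, 127 (62 higher, 65 lower) at 96 against 0 h, and 29 at 96 against 24 h. Total counts gave 33, 215 (23 higher, 192 lower), and 72; no fold threshold gave 35, 216, and 62; total counts without miR-21-5p gave 26 at 24 against 0 h. At 96 against 24 h, no filter gave 46, a mean of at least 10 CPM 17, only the libraries compared 44, and limma 10.

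Leaving out 1 library gave 4 to 36, 93 to 142, and 9 to 22 differentially expressed miRNAs in the same order. For miR-146a-5p it gave log2-fold changes of -0.12 to 0.14 (24 against 0 h; 0.14 without 0 h replicate 2), 0.45 to 0.70 (96 against 0 h), and 0.60 to 0.66 (96 against 24 h). For miR-146b-5p it gave -0.26 to -0.08, 0.13 to 0.31, and 0.39 to 0.50; for miR-146b-3p 0.57 to 1.15, -0.13 to 0.41, and -0.99 to -0.40. For miR-155-5p it gave -1.88 to -0.085, -0.26 to 0.30, and 0.13 to 1.93, where -1.88 and 1.93 rest on leaving out 24 h replicate 2. The log2 ratio of miR-146a-5p to miR-146b-5p moved between 0.15 and 0.22 at 24 h and between 0.29 and 0.42 at 96 h, both against 0 h. That of miR-146b-5p to miR-146b-3p moved between -1.41 and -0.74 at 24 h and between -0.23 (without 96 h replicate 2) and 0.39 at 96 h, with -0.0076 without 0 h replicate 2.

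The labels do not say whether the replicate numbers pair the libraries. The correlation of replicate differences over 491 miRNAs was -0.31 for 0 and 24 h, 0.33 for 0 and 96 h, and -0.20 for 24 and 96 h. These values differ in sign and do not settle it. With a replicate block, edgeR gave 20, 124, and 41 differentially expressed miRNAs, and 0.55 (adjusted p = 0.0203) for miR-146a-5p at 96 against 0 h.

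Over all alternatives, 183 values kept their direction and their side of the threshold, stayed within the spread, or, for counts of differentially expressed miRNAs, stayed near the main count. Of the others, 21 moved beyond these limits, 11 reversed direction, and 2 counted as called only without the fold threshold. miR-146b-3p and miR-155-5p, below the filter, have no value from DESeq2's test, limma, the stricter filter, the fold threshold, or the block. With 1 to 13 counts per library, depth limits both. The values of miR-21-5p and miR-181b-5p and of the NF-kB-linked list under total counts were chosen after seeing the data.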
